A study of Mus musculus with 74 samples.

Results

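Inhibitory checkpoint receptors are surface proteins that dampen T cell activation, and the genes of 7 of them were followed in immune cells from tumors and spleens of aged and young mice. The 7 members, Pdcd1, Ctla4, Lag3, Tigit, Havcr2, Cd160 and Btla, were taken by name from the known inhibitory receptors of T cells, and all 7 were found among the 49480 genes of the count table. They were chosen with earlier results of these data known, so the shares of members called describe the set and do not test it. The mice were C57BL/6J, aged 12 or 3 months, and carried subcutaneous tumors of MC38, a mouse colon adenocarcinoma line, at day 10 of growth. Each library was made with Smart-seq2, a full-length RNA-seq method for small inputs, from 1000 double-sorted cells. The 5 sorts were CD8 T cells (CD45+ TCRb+ CD8+), conventional CD4 T cells (CD45+ TCRb+ CD4+ CD25-), regulatory T cells (CD45+ TCRb+ CD4+ CD25+), dendritic cells (CD45+ CD11b+ CD11c+ MHCII+) and macrophages (CD45+ CD11b+ F4/80+).

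Each sort was taken from tumor and spleen at 12 and at 3 months, which gave 20 groups and 74 libraries. Groups held 4 libraries, except tumor conventional CD4 T cells at 3 months (2), spleen conventional CD4 T cells at 3 months (3), tumor dendritic cells at 12 months (3), spleen dendritic cells at 12 months (3) and spleen dendritic cells at 3 months (3). The mice were female, apart from library 1 of each of the 4 dendritic cell groups. In 2 spleen dendritic cell libraries the title gave 3 months and the age tag 12 months, and the title was followed. The sorts rest on surface protein gates: CD25, not Foxp3, parts the regulatory from the conventional CD4 T cells. Nothing in the labels says that libraries of a group came from separate mice, so the p-values measure the spread between libraries.

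Checkpoint receptors act at different points. PD-1, the product of Pdcd1, and BTLA recruit phosphatases that oppose antigen receptor and CD28 signaling when they meet PD-L1 or PD-L2 and HVEM. CTLA-4 outcompetes CD28 for CD80 and CD86 and is a constitutive product of regulatory T cells, and LAG-3 binds MHC class II and fibrinogen-like protein 1. TIGIT competes with CD226 for the poliovirus receptor CD155. TIM-3, the product of Havcr2, is found on terminally exhausted T cells and on dendritic cells and macrophages. CD160 shares the ligand HVEM with BTLA and is typical of cytotoxic lymphocytes. In tumors, several of these receptors accumulate on T cells that meet antigen for long periods. Btla is also abundant on resting T cells and B cells.

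On the mm10 genome, the annotation placed Pdcd1 at chr1:94038305-94052553 (minus strand), Ctla4 at chr1:60887000-60915832 (plus), Lag3 at chr6:124904361-124911705 (minus), and Tigit at chr16:43648867-43664146 (minus). It placed Havcr2 at chr11:46454935-46481255 (plus), Cd160 at chr3:96798763-96829351 (minus) and Btla at chr16:45224315-45257670 (plus). Counts were taken over exons, whose merged length ran from 919 bases for Tigit to 3396 bases for Btla. Of the 7 genes, Cd160 alone shared exonic bases with another gene, 68 bases or 2.57% of its exons, with Pdzk1 on the opposite strand. Pdzk1 reached at most 1.92 CPM (counts per 1000000 of a library) in any library. RefSeq promoter windows (GRCm38.p6, 250 bases before to 50 after the start site) were found for 6 of the 7 genes. They were searched on both strands for the AP-1 letters TGANTCA and the NFAT letters TGGAAA, for factors known to drive several of these genes in activated T cells. The shorter NFAT form GGAAA was not searched. An AP-1 match stood in the Havcr2 window, 200 bases before the start site, and an NFAT match on the minus strand in the Ctla4 window, 144 bases before the start site. Of all 32851 promoter windows, 7.81% held the AP-1 and 21.4% the NFAT letters. The Pdcd1, Tigit, Cd160 and Btla windows held neither of these exact strings of letters. The 250 bases before the start site are printed for 3 genes that were far higher in tumor than in spleen CD8 T cells and for Btla, which was lower there. They run 5′ to 3′ on the gene's strand, with motif matches in capitals.
Pdcd1, chr1:94052554-94052803, minus strand: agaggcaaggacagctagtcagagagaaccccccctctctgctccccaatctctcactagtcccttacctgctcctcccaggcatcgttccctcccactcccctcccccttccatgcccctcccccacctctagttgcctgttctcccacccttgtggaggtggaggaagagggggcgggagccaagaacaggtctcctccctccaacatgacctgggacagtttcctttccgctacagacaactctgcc
Ctla4, chr1:60908775-60909024, plus strand: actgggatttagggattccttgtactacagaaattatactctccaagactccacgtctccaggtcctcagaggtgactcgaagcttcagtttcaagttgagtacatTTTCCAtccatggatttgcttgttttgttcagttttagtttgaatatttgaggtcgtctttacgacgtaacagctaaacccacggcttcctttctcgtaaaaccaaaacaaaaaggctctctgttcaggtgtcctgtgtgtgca
Havcr2, chr11:46454681-46454930, plus strand: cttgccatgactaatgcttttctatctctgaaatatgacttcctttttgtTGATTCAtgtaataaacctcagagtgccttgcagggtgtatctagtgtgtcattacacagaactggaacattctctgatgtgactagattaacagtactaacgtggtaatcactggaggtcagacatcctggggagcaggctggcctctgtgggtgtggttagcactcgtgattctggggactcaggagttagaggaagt
Btla, chr16:45224087-45224336, plus strand: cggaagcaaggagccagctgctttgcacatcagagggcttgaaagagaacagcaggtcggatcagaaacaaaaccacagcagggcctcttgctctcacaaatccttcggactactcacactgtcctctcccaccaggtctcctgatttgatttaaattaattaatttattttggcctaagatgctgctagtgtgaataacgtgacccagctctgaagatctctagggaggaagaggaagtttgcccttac

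Libraries held 1652812 to 9115858 counts (median 4679409.5), so that a count of 0 in 1 group allowed at most 0.104 to 0.323 CPM over its libraries (3 counts; counting error only). The T cell sorts matched their labels: Cd4 reached at most 0.454 CPM in CD8 T cells, and the sum of Cd8a and Cd8b1 at most 27.8 CPM in either CD4 sort, against 2631 to 4779 CPM in CD8 T cells. Summed Foxp3, Il2ra and Ikzf2, markers of regulatory T cells, ran from 2922 to 5056 CPM in regulatory T cells, from 187 to 2484 CPM in conventional CD4 T cells and from 76.0 to 446 CPM in CD8 T cells. Mitochondrial transcripts took 0.865% to 2.01% of counts in regulatory T cells, against 5.06% to 11.2% in the CD8 and conventional CD4 T cells. This gap accompanies every comparison of regulatory T cells with the other T cells, and its part in them was not tested. Libraries 1 and 4 of spleen conventional CD4 T cells at 3 months stood apart with 7.85% and 10.6% of counts on cytosolic ribosomal protein genes, against 4.16% in library 3 and 3.53% to 4.03% in the 4 libraries at 12 months. The sum of 7 dendritic cell markers ran from 12351 to 25149 CPM in dendritic cells and from 1922 to 14259 CPM in macrophages, and that of 10 macrophage markers from 15170 to 26410 CPM in macrophages and from 922 to 15920 CPM in dendritic cells.

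The order of the 20 groups by mean CPM differed between the receptors. Pdcd1 was highest in tumor CD8 T cells at 3 months (547 ± 185 CPM, SD, n = 4) and Ctla4 in tumor conventional CD4 T cells at 3 months (90.0 ± 8.08, n = 2). Lag3 was highest in tumor regulatory T cells at 12 months (1357 ± 703, n = 4) and Tigit in tumor regulatory T cells at 3 months (968 ± 267, n = 4). Havcr2 was highest in tumor macrophages at 3 months (344 ± 151 CPM, n = 4), Cd160 in tumor CD8 T cells at 3 months (261 ± 54.2, n = 4) and Btla in spleen dendritic cells at 12 months (298 ± 46.8, n = 3). Most groups overlapped their neighbor in this order: of the 19 neighboring pairs, the libraries did not overlap in 4 pairs for Pdcd1 and for Ctla4, in 2 for Tigit, Havcr2 and Btla, in 1 for Cd160 and in 0 for Lag3. Per kilobase of exon, which permits genes to be compared, the highest mean level in tumor CD8 T cells at 12 months was that of Lag3 (235 CPM per kb), next to Pdcd1 (228), Tigit (120) and Cd160 (75.2). In tumor regulatory T cells at 12 months it was that of Tigit (1033 CPM per kb), next to Lag3 (643) and Pdcd1 (132). It was that of Havcr2 in tumor macrophages at 12 months (103) and that of Btla in spleen CD8 T cells at 12 months (28.8).

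**Figure D1:**
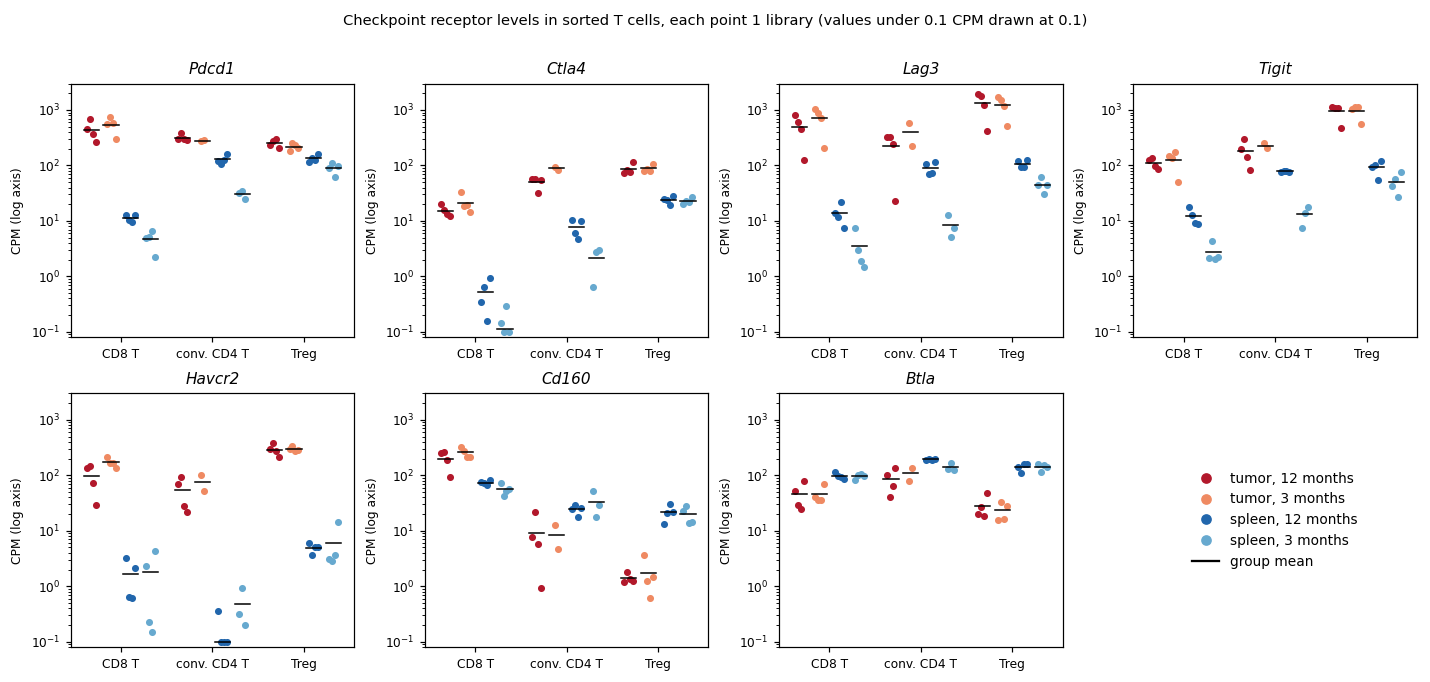
CPM of each of the 7 receptor genes (log axis) in every T cell library, with a point per library, a bar at the group mean, and tumor placed left of spleen and 12 months left of 3 months within each sort. The means of Pdcd1, Ctla4, Lag3, Tigit and Havcr2 lie higher in tumor than in spleen in all 3 sorts, and those of Btla lie lower.

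In CD8 T cells, 6 of the 7 receptors were higher in tumor than in spleen and Btla was lower. All 7 passed the test (edgeR quasi-likelihood, Benjamini-Hochberg adjustment over all 13285 genes tested, threshold 0.05), in a comparison in which 42.1% of all genes were called and 22.5% were called higher. Their median log2 fold change was 6.10, against -0.01 for all genes. The ribosomal protein share of counts differed between the tissues as well, without overlap, in all 3 T cell sorts. It was 2.68% to 3.54% in tumor CD8 T cells, against 3.99% to 5.95% in spleen CD8 T cells. Tumor conventional CD4 T cells had 1.67% to 3.19%, against 3.53% to 10.6% in spleen. Tumor regulatory T cells had 0.781% to 1.5%, against 2.17% to 3.02% in spleen. The sum of Foxp3, Il2ra and Ikzf2 was 209.6 to 446 CPM in tumor CD8 T cells, against 76.0 to 152 CPM in spleen CD8 T cells. Cd4 was at most 0.454 CPM in either, against 490 to 931 CPM in regulatory T cells. The part of these shares and markers in the tissue differences was not tested. In sorted bulk samples of this kind, fewer cells that express a gene and less RNA of it per cell cannot be told apart.

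Pdcd1 had 453, 680.5, 362 and 265 CPM in tumor CD8 T cells at 12 months and 561, 738, 594 and 294 CPM at 3 months. It had 12.7, 10.3, 9.70 and 12.6 CPM in spleen CD8 T cells at 12 months and 4.89, 5.08, 6.55 and 2.20 CPM at 3 months. The lowest tumor library stood far above the highest spleen library, and the ratio of the tissue means was 61.6 (log2 fold change 6.12 ± 0.25 SE, adjusted p = 6.94e-12, edgeR). Lag3, the MHC class II receptor, had 800.4, 601, 455 and 124 CPM in tumor at 12 months and 1038, 875, 710.2 and 210.3 CPM at 3 months. In spleen it had 13.8, 11.9, 22.1 and 7.45 CPM at 12 months and 7.49, 3.00, 1.93 and 1.47 CPM at 3 months. Its tumor and spleen libraries did not overlap, and library 4 was the lowest of its tumor group at both ages (log2 fold change 6.42 ± 0.52, adjusted p = 5.07e-07). Havcr2 had 138, 145, 73.7 and 29 CPM in tumor at 12 months and 218, 166, 167 and 134 CPM at 3 months. In spleen it had 3.23, 0.645, 0.626 and 2.10 CPM at 12 months and 2.30, 0.231, 0.149 and 4.40 CPM at 3 months. This was the largest ratio of means among the 7 receptors in the sort, 78.3 (log2 fold change 6.31 ± 0.49, adjusted p = 1.69e-07). The sum of 10 macrophage markers, another cell type that carries Havcr2, was 14.9 to 49.9 CPM in tumor CD8 T cells, against 5.62 to 17.7 CPM in spleen CD8 T cells and 15170 to 26410 CPM in the sorted macrophages.

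Ctla4 was low in both tissues. It had 20.3, 15.5, 13.6 and 12.1 CPM in tumor CD8 T cells at 12 months and 33.5, 18.4, 19.7 and 14.3 CPM at 3 months. It had at most 0.931 CPM in spleen CD8 T cells, where 12 counts were seen in all 8 libraries together (log2 fold change 6.10 ± 0.39, adjusted p = 8.54e-12). Tigit had 50.7 to 175 CPM (median 129) in the 8 tumor libraries, against 2.08 to 17.7 CPM (median 6.62) in the 8 spleen libraries (log2 fold change 4.46 ± 0.25, adjusted p = 2.54e-11). Neither gene had overlapping tissues.

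The HVEM receptors parted. Cd160 had 251, 262, 187 and 94.6 CPM in tumor CD8 T cells at 12 months and 330.5, 277, 218 and 218 CPM at 3 months. In spleen it had 75.9, 71.3, 65.9 and 83.1 CPM at 12 months and 73.3, 42.3, 52.4 and 56.0 CPM at 3 months. The tissues did not overlap, but the ratio of means was only 3.53 (log2 fold change 1.90 ± 0.17, adjusted p = 1.49e-08). Btla had 51.8, 29.6, 24.6 and 77.8 CPM in tumor at 12 months and 41.3, 36.5, 35.5 and 70.5 CPM at 3 months. In spleen it had 116, 96.8, 93.3 and 85.2 CPM at 12 months and 84.1, 103, 107 and 97.5 CPM at 3 months. It was lower in every tumor library, with the 2 libraries numbered 4 closest to the spleen (log2 fold change -1.0 ± 0.21, adjusted p = 0.000734). The sum of 8 B cell markers was 14.0 to 40.1 CPM in tumor CD8 T cells, against 70.9 to 132 CPM in spleen CD8 T cells, and its part in the Btla difference was not tested.

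In conventional CD4 T cells, 5 of 7 receptors were higher and 2 lower in tumor, where 27.2% of all genes were called and 16.0% were called higher. The median log2 fold change of the members was 2.68, against 0.04 for all genes. Pdcd1, already present in spleen, had 294, 391, 297 and 290.3 CPM in tumor at 12 months and 275 and 289 CPM at 3 months. It had 118, 106, 127 and 162 CPM in spleen at 12 months and 31.3, 34.1 and 25.2 CPM at 3 months. Every tumor library exceeded every spleen library (log2 fold change 2.31 ± 0.14, adjusted p = 1.70e-12). Ctla4 had 57.0, 56.3, 31.7 and 55.4 CPM in tumor at 12 months and 95.7 and 84.3 CPM at 3 months. Its spleen libraries had 10.3, 6.01, 4.81 and 9.80 CPM at 12 months and 0.632, 2.74 and 3.00 CPM at 3 months (log2 fold change 4.03 ± 0.28, adjusted p = 9.74e-12).

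Havcr2 was nearly absent from spleen conventional CD4 T cells. It had 70.7, 94.4, 27.7 and 21.6 CPM in tumor at 12 months and 101 and 52.2 CPM at 3 months. It had 7 counts in all 7 spleen libraries together, at most 0.915 CPM in one (log2 fold change 7.87 ± 0.49, adjusted p = 5.50e-12). Lag3 had 321, 331, 239 and 23.0 CPM in tumor at 12 months and 593 and 225 CPM at 3 months. It had 106, 69.2, 72.6 and 115 CPM in spleen at 12 months and 12.6, 5.18 and 7.59 CPM at 3 months. Library 4 of the tumor group at 12 months fell inside the spleen range, and the other tumor libraries lay above it (log2 fold change 3.49 ± 0.57, adjusted p = 0.00148). Tigit had 84.1 to 294 CPM (median 202) in 6 tumor libraries, against 7.59 to 80.7 CPM (median 74.8) in 7 spleen libraries (log2 fold change 2.68 ± 0.22, adjusted p = 1.06e-09).

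Cd160 was lower in the tumor CD4 sort, the opposite direction to CD8 T cells. It had 7.58, 21.8, 5.84 and 0.939 CPM in tumor at 12 months and 12.5 and 4.65 CPM at 3 months. It had 25.2, 29.6, 17.9 and 26.2 CPM in spleen at 12 months and 52.8, 18.0 and 29 CPM at 3 months (log2 fold change -1.70 ± 0.43, adjusted p = 0.00457). The tissues overlapped in 1 tumor library. Btla had 41.1 to 138 CPM (median 90.3) in tumor, against 126 to 201 CPM (median 190.1) in spleen (log2 fold change -0.74 ± 0.21, adjusted p = 0.0113). Both calls were lost without the 2 ribosome-rich spleen libraries (Cd160 adjusted p = 0.0931, Btla adjusted p = 0.0805), and that of Btla also without library 1 of the tumor group at 3 months (adjusted p = 0.0875). Summed regulatory T cell markers were 994 to 2484 CPM in tumor conventional CD4 T cells, against 187 to 1169.9 CPM in those of spleen, and their part in these differences was not tested.

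In regulatory T cells, 5 of 7 receptors were again higher and the HVEM receptors lower in tumor, where 53.5% of all genes were called and 25.9% were called higher. The median log2 fold change of the members was 2.13, against -0.05 for all genes. Lag3 had 1979.5, 1803, 1227 and 418 CPM in tumor at 12 months and 1714, 1532, 1175 and 519 CPM at 3 months. It had 119, 93.8, 93.8 and 124 CPM in spleen at 12 months and 44.7, 61.1, 30.0 and 44.1 CPM at 3 months. The ratio of means was 17.0 (log2 fold change 4.46 ± 0.33, adjusted p = 1.72e-08). Tigit had 1142, 1087, 1096 and 472 CPM in tumor at 12 months and 1051, 1129, 1122 and 571 CPM at 3 months. Its spleen libraries had 93.1, 102, 55.6 and 118 CPM at 12 months and 42.0, 56.9, 26.8 and 75.2 CPM at 3 months (log2 fold change 4.05 ± 0.25, adjusted p = 7.10e-10). In both genes library 4 of either age lay below every other tumor library and still stood above all spleen libraries.

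Havcr2 had 299, 379, 280.0 and 210.0 CPM in tumor regulatory T cells at 12 months and 293, 334, 277 and 283 CPM at 3 months, against 2.83 to 14.2 CPM (median 4.36) in the 8 spleen libraries (log2 fold change 5.98 ± 0.26, adjusted p = 1.15e-12). Ctla4, which these cells carry in both tissues, had 73.0 to 116 CPM (median 81.4) in tumor, against 19.5 to 27.6 CPM (median 23.5) in spleen (log2 fold change 2.13 ± 0.13, adjusted p = 1.87e-11). Pdcd1 changed least of the 5, with 181 to 300.0 CPM (median 235) in tumor, against 62.3 to 159 CPM (median 113) in spleen (log2 fold change 1.34 ± 0.12, adjusted p = 4.61e-09). None of the 3 had overlapping tissues.

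Cd160 had 1.20, 1.81, 1.36 and 1.22 CPM in tumor regulatory T cells at 12 months and 3.66, 1.26, 0.625 and 1.45 CPM at 3 months. Spleen libraries had 13.5, 20.6, 30.4 and 21.4 CPM at 12 months and 22.8, 28.0, 14.1 and 14.6 CPM at 3 months. It was nearly gone from the tumor libraries (log2 fold change -3.47 ± 0.31, adjusted p = 6.10e-09). Btla had 19.9, 27.4, 18.4 and 47.4 CPM in tumor at 12 months and 15.8, 33.4, 16.0 and 28.5 CPM at 3 months, against 112 to 159.9 CPM (median 147) in the 8 spleen libraries (log2 fold change -2.23 ± 0.20, adjusted p = 7.91e-09). No tumor library reached the lowest spleen library for either gene. The sum of 8 B cell markers was 19.6 to 40.7 CPM in tumor regulatory T cells, against 74.3 to 123 CPM in those of spleen. That of 8 neutrophil markers was 69.1 to 237 CPM in tumor regulatory T cells, against 1.30 to 6.78 CPM in those of spleen, and the part of either was not tested.

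**Figure D2:**
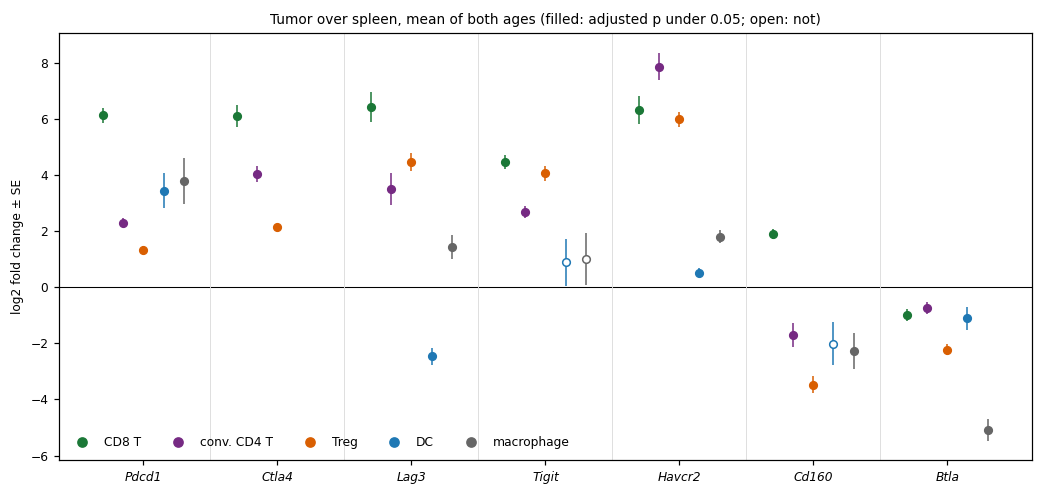
Log2 fold change, tumor over spleen, of each receptor in the 5 sorts, with bars of 1 SE on each side from the edgeR fit; filled points passed the adjusted threshold of 0.05 and a gene without a point was not tested. Btla lies below 0 in all 5 sorts, and Cd160 lies above 0 in CD8 T cells and below 0 in the others.

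The size of the tumor difference was then tested between the T cell sorts in a fit of all 45 T cell libraries (18066 genes). Relative to conventional CD4 T cells, the tumor over spleen change of CD8 T cells was greater for Pdcd1 by 3.82 ± 0.26 on the log2 scale (adjusted p = 1.35e-15), Ctla4 by 2.06 ± 0.45 (0.00359), Lag3 by 2.94 ± 0.70 (0.0118), Tigit by 1.79 ± 0.42 (0.00929) and Cd160 by 3.62 ± 0.43 (7.35e-07). That made 5 of 7 members, against 4.82% of all genes. Havcr2 (-1.60 ± 1.09, adjusted p = 0.439) and Btla (-0.25 ± 0.33, adjusted p = 0.758) did not pass. The Lag3 call was lost without library 3 of tumor conventional CD4 T cells at 3 months (adjusted p = 0.063), and both the Lag3 and the Tigit calls were lost without the 2 ribosome-rich spleen libraries (adjusted p = 0.293 and 0.073).

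Relative to regulatory T cells, the tumor change of CD8 T cells was greater for Pdcd1 by 4.77 ± 0.23 (adjusted p = 5.71e-22), Ctla4 by 3.94 ± 0.39 (2.72e-11), Lag3 by 1.95 ± 0.61 (0.0284), Cd160 by 5.36 ± 0.44 (3.54e-12) and Btla by 1.21 ± 0.32 (0.00635), again 5 of 7, where 13.2% of all genes were called. Tigit (0.39 ± 0.37, adjusted p = 0.59) and Havcr2 (0.30 ± 0.57, adjusted p = 0.822) did not pass. Between regulatory and conventional CD4 T cells 5 of 7 differed in their tumor change, where 8.98% of all genes did. The change of regulatory T cells was lower for Pdcd1 (-0.95 ± 0.23, adjusted p = 0.00414), Ctla4 (-1.87 ± 0.30, 9.58e-06), Cd160 (-1.74 ± 0.50, 0.022) and Btla (-1.46 ± 0.34, 0.00314) and higher for Tigit (1.40 ± 0.38, 0.0143). The Pdcd1, Tigit and Btla calls were lost without the 2 ribosome-rich spleen libraries (adjusted p = 0.0779, 0.0872 and 0.0515). The Tigit call was also lost without library 3 of tumor conventional CD4 T cells at 3 months (0.0696) or library 4 of the spleen group at 3 months (0.0606), and the Cd160 call without library 1 of the tumor group at 3 months (0.223).

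Within a tissue, each sort had its own receptor profile. In tumor, CD8 T cells exceeded conventional CD4 T cells in Pdcd1 (log2 difference 0.80 ± 0.17, adjusted p = 0.000566), Cd160 (4.82 ± 0.38, 2.44e-12) and Havcr2 (1.10 ± 0.36, 0.0336) and were lower in Ctla4 (-1.81 ± 0.20, 9.12e-10) and Btla (-0.98 ± 0.24, 0.00431), 5 of 7 members against 15.3% of all genes. Lag3 (1.03 ± 0.45, 0.124) and Tigit (-0.68 ± 0.26, 0.0714) did not pass. The Btla call was lost without library 3 of tumor conventional CD4 T cells at 3 months (0.0933). The Havcr2 call was lost with any one of 6 libraries left out (tumor CD8 libraries 1 and 2 at 12 months and 1 at 3 months, tumor conventional CD4 libraries 3 and 4 at 12 months and 3 at 3 months; adjusted p = 0.0511 to 0.215).

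Against tumor regulatory T cells, CD8 T cells differed in all 7, where 47.2% of all genes did. They were higher in Pdcd1 (1.08 ± 0.15, adjusted p = 2.33e-08), Btla (0.87 ± 0.23, 0.00157) and Cd160, by 7.20 ± 0.36 on the log2 scale (1.69e-19), and lower in Ctla4 (-2.25 ± 0.19, 5.35e-15), Tigit (-3.00 ± 0.25, 1.67e-12), Havcr2 (-1.18 ± 0.31, 0.00159) and Lag3 (-1.12 ± 0.39, 0.0181). The Lag3 call was lost without library 4 of tumor CD8 T cells at 3 months (0.0579) or library 1 or 2 of tumor regulatory T cells at 12 months (0.0583 and 0.0505). Tumor regulatory T cells exceeded tumor conventional CD4 T cells in Lag3 (2.15 ± 0.48, adjusted p = 0.000435), Tigit (2.31 ± 0.29, 4.11e-08) and Havcr2 (2.28 ± 0.38, 7.69e-06) and were lower in Cd160 (-2.38 ± 0.42, 1.10e-05) and Btla (-1.85 ± 0.25, 7.46e-08), 5 of 7 members against 41.4% of all genes. Pdcd1 (-0.28 ± 0.16, 0.162) and Ctla4 (0.45 ± 0.20, 0.0663) did not pass. Ctla4 did pass in some fits that left out 1 library, as without library 1 of spleen conventional CD4 T cells at 3 months (0.50, 0.0297).

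In spleen, CD8 T cells were lower than conventional CD4 T cells in 5 receptors and higher in Cd160, where 11.7% of all genes were called. The differences were -3.03 ± 0.18 for Pdcd1 (adjusted p = 2.81e-18), -3.87 ± 0.38 for Ctla4 (3.28e-11), -2.48 ± 0.31 for Tigit (2.78e-07), -1.90 ± 0.53 for Lag3 (0.0144), -0.73 ± 0.23 for Btla (0.0273) and 1.20 ± 0.27 for Cd160 (0.00193). The Lag3 call was lost without library 1 of spleen conventional CD4 T cells at 3 months (0.0654), and the Btla call with any one of 7 spleen libraries left out (CD8 T cells 3 and 4 at 12 months and 1 and 2 at 3 months, conventional CD4 T cells 1 and 2 at 12 months and 3 at 3 months; 0.0502 to 0.0616). Without the 2 ribosome-rich libraries both calls were lost (Lag3 0.464, Btla 0.135). Havcr2, at or near 0 in both sorts, did not pass (2.69 ± 0.98, 0.071). It did pass in some fits that left out 1 library, as without library 3 of spleen CD8 T cells at 3 months (2.93, 0.0367).

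Spleen CD8 T cells were also lower than spleen regulatory T cells in 5 receptors, where 45.6% of all genes were called: Pdcd1 (-3.69 ± 0.18, adjusted p = 7.32e-23), Ctla4 (-6.19 ± 0.31, 5.61e-23), Lag3 (-3.07 ± 0.48, 1.72e-06), Tigit (-3.39 ± 0.30, 5.13e-12) and Havcr2 (-1.48 ± 0.50, 0.0138). Cd160 was higher (1.84 ± 0.26, 2.38e-07), Btla did not pass (-0.34 ± 0.22, 0.207), and the Havcr2 call was lost without library 4 of spleen regulatory T cells at 3 months (0.106), which had 14.2 CPM. Spleen regulatory T cells exceeded spleen conventional CD4 T cells in 5 receptors, where 42.2% of all genes were called: Pdcd1 (0.66 ± 0.16, 0.000691), Ctla4 (2.32 ± 0.23, 4.64e-12), Tigit (0.91 ± 0.27, 0.00597), Havcr2 (4.17 ± 0.82, 7.61e-05) and Lag3 (1.16 ± 0.47, 0.044). Cd160 (-0.64 ± 0.28, 0.0615) and Btla (-0.39 ± 0.22, 0.167) did not pass. Cd160 did pass in many fits that left out 1 library, as without library 2 of tumor conventional CD4 T cells at 12 months (-0.68, 0.0211). It also passed with DESeq2 size factors in edgeR (-0.70, 0.0398). The Lag3 call was lost when any one of 23 of the 45 libraries was left out (adjusted p = 0.0505 to 0.0989), and without the 2 ribosome-rich libraries the Lag3 (0.112) and Tigit (0.0526) calls were lost.

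Library 4 carried the lowest levels of several receptors in tumor T cells. Lag3 and Tigit were lowest in library 4 in 5 of the 5 tumor T cell groups that had one, Pdcd1 and Havcr2 in 4, and Cd160 in 3, while Btla was highest there in 4. Lag3 had 23.0 to 519 CPM in these 5 libraries, against 239 to 1979.5 CPM in the other libraries of the same groups, and Tigit had 50.7 to 571 CPM, against 97.5 to 1142 CPM. How many of all genes were lowest or highest there in as many groups was not counted, so the pattern is not shown to be particular to the receptors. The same libraries had the highest mitochondrial share in 5 of 5 groups (1.43% to 10.9%, against 0.865% to 6.71%) and the highest ribosomal protein share in 4. They had the fewest genes with a count in 3. The labels give no batch for the number 4, and its part in the results was not tested. Without these libraries, all 7 receptors still passed the tumor over spleen test in CD8, conventional CD4 and regulatory T cells, and in tumor, CD8 T cells then also differed from conventional CD4 T cells in Lag3 (1.17, adjusted p = 0.0036) and Tigit (-0.60, 0.0337).

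**Figure D3:**
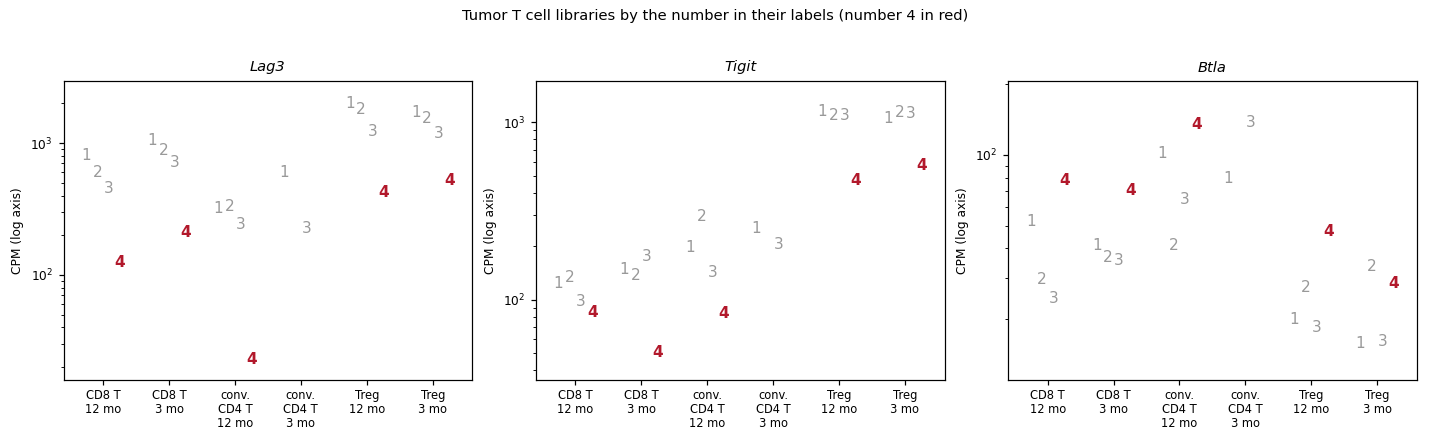
CPM (log axis) of Lag3, Tigit and Btla in each tumor T cell library, with every point drawn as its library number. The digit 4 stands lowest in each of the 5 groups that have one for Lag3 and Tigit, and highest in 4 of the 5 for Btla.

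The study set 12-month-old against 3-month-old mice, and within tumors no receptor passed the test for age in any sort. In tumor CD8 T cells the 7 log2 fold changes, 12 over 3 months, ran from -0.82 to 0.01, with Pdcd1 at -0.30 ± 0.30, Lag3 at -0.50 ± 0.64 and Havcr2 at -0.82 ± 0.42. The members' count of 0 was set against 0.0% of all genes (0 of 11804 with edgeR, 486 at an unadjusted p under 0.05, 12 with the DESeq2 Wald test). In tumor conventional CD4 T cells, with only 2 libraries at 3 months, they ran from -0.89 to 0.16. Ctla4 had 31.7 to 57.0 CPM at 12 months, against 84.3 and 95.7 CPM at 3 months, and did not pass (log2 fold change -0.87 ± 0.27, adjusted p = 0.531). In this comparison 0.0311% of all genes were called (4 with edgeR, 682 at an unadjusted p under 0.05, 40 with DESeq2). In tumor regulatory T cells the 6 receptors tested ran from -0.03 to 0.25 and 0.0% of all genes were called (461 at an unadjusted p under 0.05, 7 with DESeq2). Cd160 was too low to be tested there. The same-numbered tumor regulatory T cell libraries deviated together across the ages, and with that number as a block 0 of the 6 receptors and 3 genes in all passed.

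In the spleen, age differences were found in all 3 T cell sorts. In conventional CD4 T cells, Pdcd1, Lag3 and Tigit were higher at 12 months, 3 of 6 receptors tested, where 3.92% of all genes were called and 1.96% were called higher. Pdcd1 had 118, 106, 127 and 162 CPM at 12 months, against 31.3, 34.1 and 25.2 CPM at 3 months (log2 fold change 1.92 ± 0.23, adjusted p = 0.000141). Lag3 had 106, 69.2, 72.6 and 115 CPM at 12 months, against 12.6, 5.18 and 7.59 CPM at 3 months (3.24 ± 0.33, 4.02e-05). Tigit had 76.8, 79.7, 80.7 and 74.8 CPM at 12 months, against 7.59, 13.7 and 18.0 CPM at 3 months (2.37 ± 0.29, 0.000151). The ages did not overlap for any of the 3 genes. Ctla4 did not overlap either, with 4.81 to 10.3 CPM at 12 months and 0.632 to 3.00 CPM at 3 months, but did not pass (1.66 ± 0.64, 0.152). The share of all genes without overlap was not counted, and 2297 of 11726 genes had an unadjusted p under 0.05 (edgeR). Cd160 and Btla did not pass, and Havcr2 was too low to be tested.

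In the same libraries, regulatory T cell markers and ribosomal protein transcripts moved with age too. Summed regulatory T cell markers were 844 to 1169.9 CPM at 12 months and 187 to 589 CPM at 3 months, in a sort gated on absence of CD25. Foxp3 alone had 51.7 to 79.9 CPM at 12 months and 21.2 to 44.8 CPM at 3 months. The ribosomal protein share was 3.53% to 4.03% at 12 months and 4.16% to 10.6% at 3 months. The part of either was not tested. Without the 2 ribosome-rich libraries, which leaves 1 library at 3 months whose spread is taken from the other group, Pdcd1 (1.84, adjusted p = 0.00103), Lag3 (4.06, 1.29e-05) and Tigit (2.44, 0.000339) still passed. With tumor and spleen libraries in one fit, Lag3 missed the threshold (3.26, adjusted p = 0.0694) and Ctla4 passed it (1.67, adjusted p = 0.0255).

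In spleen CD8 T cells, 2 of 6 receptors tested, Lag3 and Tigit, were higher at 12 months, where 1.02% of all genes were called and 0.925% were called higher. Tigit had 17.7, 12.6, 9.23 and 8.85 CPM at 12 months, against 2.16, 4.39, 2.08 and 2.20 CPM at 3 months (log2 fold change 2.18 ± 0.42, adjusted p = 0.00707). Lag3 had 13.8, 11.9, 22.1 and 7.45 CPM at 12 months, against 7.49, 3.00, 1.93 and 1.47 CPM at 3 months (1.96 ± 0.46, 0.0349). Tigit did not overlap between the ages, and Lag3 overlapped in 1 library of each. In the same libraries the sum of 5 NK cell markers was 88.4 to 95.9 CPM at 12 months, against 24.5 to 30.3 CPM at 3 months. That of Foxp3, Il2ra and Ikzf2 was 108 to 152 CPM, against 76.0 to 110.2 CPM, while Cd4 was at most 0.432 CPM at either age. Among the 5 NK cell genes, 1 was at 0 in all libraries at 12 months and 1 at 3 months, and the part of these markers was not tested. The Tigit call was lost without library 1 at 12 months (0.0666). The Lag3 call was lost in 6 of 8 fits that left out 1 library (library 1, 2 or 3 at 12 months, or 2, 3 or 4 at 3 months; adjusted p = 0.0709 to 0.247) and with all 4 CD8 groups in one fit (0.739). Pdcd1, with 9.70 to 12.7 CPM at 12 months and 2.20 to 6.55 CPM at 3 months, did not overlap and did not pass (1.26 ± 0.37, 0.152). Ctla4 was too low to be tested.

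In spleen regulatory T cells, 1 of 7 receptors, Lag3, was higher at 12 months, where 0.0489% of all genes were called, each of them higher (0.0489%). Lag3 had 119, 93.8, 93.8 and 124 CPM at 12 months, against 44.7, 61.1, 30.0 and 44.1 CPM at 3 months, with no overlap (log2 fold change 1.24 ± 0.19, adjusted p = 0.0275). The call was lost in 6 of 8 fits that left out 1 library (library 1, 2 or 4 at 12 months, or 1, 3 or 4 at 3 months; 0.0607 to 0.161) and with tumor and spleen in one fit (0.999). Pdcd1 had 116 to 159 CPM at 12 months and 62.3 to 109 CPM at 3 months (0.56 ± 0.16, 0.616). Tigit had 55.6 to 118 CPM at 12 months and 26.8 to 75.2 CPM at 3 months (0.87 ± 0.30, 0.854), and neither passed.

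**Figure D4:**
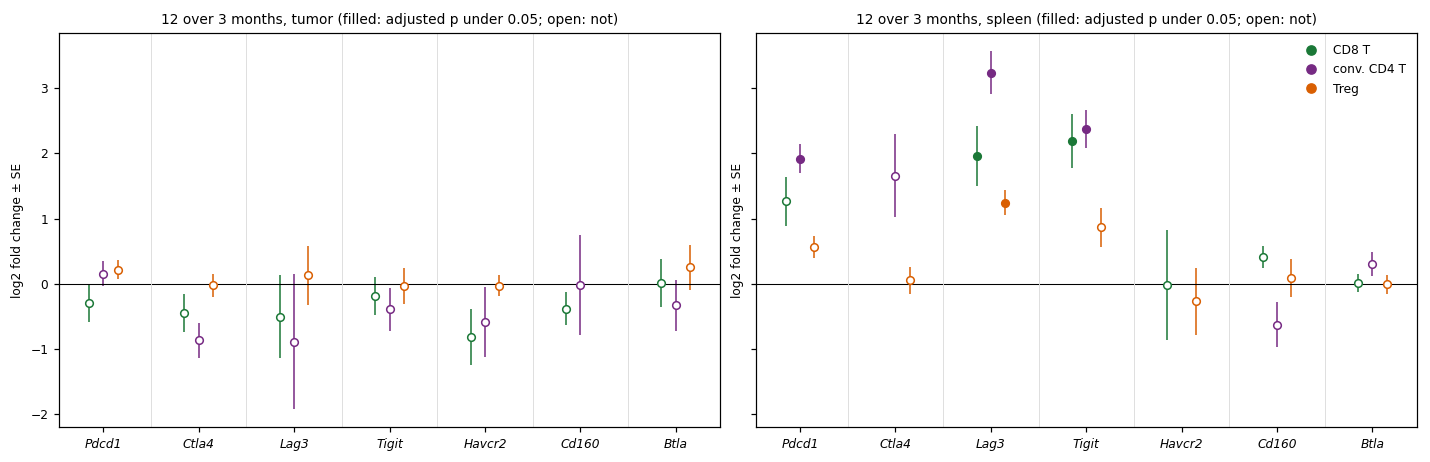
Log2 fold change, 12 over 3 months, of each receptor in tumor (left) and in spleen (right) for the 3 T cell sorts, with bars of 1 SE on each side; filled points passed the adjusted threshold of 0.05 and a gene without a point was not tested. The points past the threshold are Pdcd1, Lag3 and Tigit in spleen conventional CD4 T cells, Lag3 and Tigit in spleen CD8 T cells and Lag3 in spleen regulatory T cells.

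Whether the age difference differed between tumor and spleen was tested as an interaction, the age change in tumor minus that in spleen. In conventional CD4 T cells 3 of 7 receptors passed, where 0.668% of all genes did: Pdcd1 (-1.79 ± 0.28 on the log2 scale, adjusted p = 0.00118), Tigit (-2.78 ± 0.44, 0.00118) and Ctla4 (-2.54 ± 0.54, 0.0185). Lag3 had the lowest estimate and did not pass (-4.16 ± 1.11, 0.206), but passed without library 4 of the tumor group at 12 months (-3.78, 0.000277). The Ctla4 call was lost without library 1 of spleen at 12 months (0.0555), library 1 of spleen at 3 months (0.0759), library 1 of tumor at 3 months (0.145) or the 2 ribosome-rich libraries (0.216). Summed regulatory T cell markers went the same way, with 994 to 1755 CPM at 12 months and 2168 to 2484 CPM at 3 months in tumor conventional CD4 T cells and the opposite order in spleen. Their part in the interaction was not tested. In CD8 T cells 0 of 7 passed, where 0.143% of all genes did (19 with edgeR, 630 at an unadjusted p under 0.05). All 7 estimates were below 0, with Tigit at -2.39 ± 0.48 (0.0542) and Pdcd1 at -1.52 ± 0.47 (0.614). The Tigit estimate passed without library 4 of tumor CD8 T cells at 3 months (-2.65, 0.000157), and both passed without the 2 tumor CD8 libraries numbered 4 (Tigit -2.57, 0.000221, and Pdcd1 -1.56, 0.0412). Both also passed with the library number as a block (Tigit -2.35, 0.00244, and Pdcd1 -1.59, 0.018), though that number missed the pairing rule here. Tigit also passed with the DESeq2 Wald test (-2.40, 0.000116) and with no low-count filter (-2.37, 3.65e-11). Without the filter the estimate hardly moved and its SE was 0.305, against 0.48 with it. The shares of all genes called in these alternative fits are not given here. In regulatory T cells 0 of 7 passed and 0.0% of all genes did (521 at an unadjusted p under 0.05), with Lag3 at -1.11 ± 0.58.

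The spleen age changes were also compared between sorts. Between regulatory and conventional CD4 T cells Pdcd1 alone passed (-1.41 ± 0.32, adjusted p = 0.043), where 0.183% of all genes did, and that call was lost when any one of 16 of the 45 libraries was left out (0.0564 to 0.356) and without the 2 ribosome-rich libraries (adjusted p = 1.00). Ctla4 (-1.64 ± 0.46, 0.136), Lag3 (-2.06 ± 0.94, 0.429) and Tigit (-1.54 ± 0.54, 0.278) did not pass. None of the 7 passed between CD8 and conventional CD4 T cells, where 0.902% of all genes did, with Lag3 at -1.32 ± 1.06, or between CD8 and regulatory T cells, where 0.0111% did, with Tigit at 1.37 ± 0.59. Apart from that 1 call, the spleen age changes of the sorts were not shown to differ.

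Per kilobase of exon, Havcr2 had the highest mean of the 7 receptors in tumor macrophages (103 CPM per kb at 12 months and 126 at 3 months), tumor dendritic cells and spleen macrophages. Spleen dendritic cells carried Btla (87.8 CPM per kb at 12 months, 70.3 at 3 months), Havcr2 (42.5 and 60.7) and Lag3 (32.4 and 54.9). Tumor macrophages had 256, 261, 254 and 352 CPM of Havcr2 at 12 months and 239, 238, 338 and 559 CPM at 3 months. Spleen macrophages had 60.9, 43.6, 142 and 83.3 CPM at 12 months and 118, 87.5, 128 and 186 CPM at 3 months. The tissues did not overlap, and the ratio of means was 2.94 (log2 fold change 1.81 ± 0.24, adjusted p = 9.38e-06, edgeR). Of 6 receptors tested in macrophages 3 were higher and 2 lower in tumor, where 51.7% of all genes were called and 23.9% were called higher, so that their share of calls is to be read against a high background.

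Btla was near 0 in tumor macrophages. It had 4.16, 4.16, 1.26 and 0 CPM in tumor at 12 months and 1.95, 1.74, 1.42 and 1.08 CPM at 3 months. It had 55.6, 53.2, 57.7 and 117 CPM in spleen at 12 months and 68.9, 64.0, 93.5 and 104 CPM at 3 months (log2 fold change -5.08 ± 0.39, adjusted p = 7.09e-09). The sum of 8 B cell markers moved with it, with 9.46 to 47.3 CPM in tumor macrophages, against 904 to 3261 CPM in spleen macrophages, all 8 genes detected in both tissues, and their part in the difference was not tested. Cd160 was lower in tumor macrophages (0 to 1.95 CPM, against 0.192 to 11.4 CPM in spleen; -2.27 ± 0.65, 0.00637). Lag3 was higher (3.79 to 48.6 CPM, against 6.06 to 18.6 CPM in spleen; 1.44 ± 0.42, 0.00895), with overlap. Pdcd1 was higher too (1.12 to 25.6 CPM, against 0 to 4.04 CPM; 3.78 ± 0.83, 0.000933). The sum of 9 T cell markers was 3.07 to 108 CPM in tumor macrophages, against 68.6 to 253 CPM in spleen macrophages. By library, these sums were 63.2, 99.1, 14.4 and 6.54 CPM in tumor at 12 months, and 108, 15.2, 3.07 and 19.2 at 3 months. In the same order, TMM-scaled Pdcd1 was 17.6, 31.2, 3.26 and 1.31 CPM, then 17.0, 2.02, 3.16 and 9.63. TMM-scaled Lag3 was 58.7, 53.9, 24.9 and 15.7 CPM, then 58.4, 28.8, 10.0 and 4.81. The sum of 8 neutrophil markers was 166 to 1016 CPM in tumor macrophages, against 4907 to 39804 CPM in spleen macrophages, in a gate that admits other CD11b+ cells. Macrophage markers summed over 10 genes overlapped between the tissues. Their sums spanned 15506 to 26410 CPM over the tumor libraries (median 19307), against 15170 to 23090 CPM over those of spleen (median 20131). C1qa, a complement gene of mature macrophages, had 1140 to 3099 CPM in tumor macrophages, against 42.4 to 128 CPM in spleen macrophages. Other macrophage markers are not given singly here. The part of these marker differences in the receptor values was not tested.

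**Figure D5:**
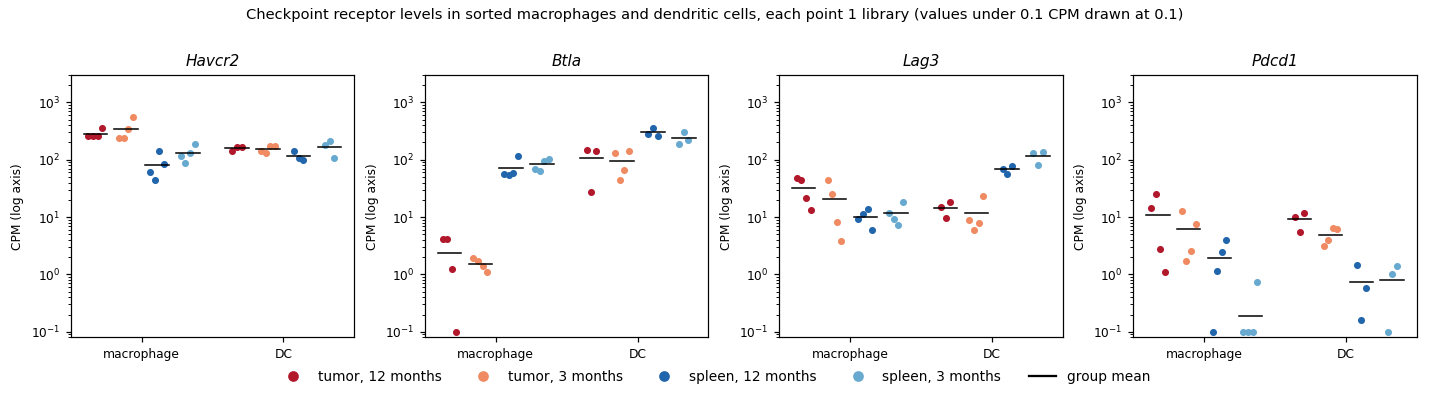
CPM (log axis) of Havcr2, Btla, Lag3 and Pdcd1 in every macrophage and dendritic cell library, drawn as for the T cells. Havcr2 is present in all 4 sort and tissue combinations, and Btla is at most 4.16 CPM in tumor macrophages.

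In dendritic cells, 2 of 6 receptors tested were higher and 2 lower in tumor, where 47.1% of all genes were called and 24.4% were called higher. Lag3 had 15.0, 9.69 and 18.5 CPM in tumor at 12 months and 9.05, 5.92, 7.80 and 23.6 CPM at 3 months. It had 70.2, 56.0 and 78.9 CPM in spleen at 12 months and 129.7, 79.3 and 138 CPM at 3 months. It was lower in every tumor library, opposite to the T cell sorts (log2 fold change -2.46 ± 0.31, adjusted p = 4.14e-05). Summed over 9 genes, T cell markers were 3.62 to 52.0 CPM in tumor dendritic cells, against 52.9 to 268 CPM in those of spleen. Cd8a and Cd8b1 summed to 0.156 to 20.3 CPM, against 83.5 to 291 CPM. Summed over 4 genes, plasma cell markers were 6.56 to 16.4 CPM, against 78.6 to 541 CPM. Those of NK cells, over 5 genes, overlapped (4.84 to 117 CPM, against 49.1 to 138 CPM). The part of these markers in the receptor differences of this sort was not tested. Pdcd1 had 3.18 to 11.8 CPM in tumor, against 0 to 1.44 CPM in spleen (3.45 ± 0.62, 0.000359).

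Havcr2, known in mouse dendritic cells to dampen the sensing of nucleic acids, had 141, 167 and 169.7 CPM in tumor dendritic cells at 12 months and 141, 129, 171 and 174 CPM at 3 months. Spleen dendritic cells had 141, 109 and 98.0 CPM at 12 months and 181, 209 and 105 CPM at 3 months. The tissues overlapped, and the call (0.51 ± 0.16, adjusted p = 0.0171) was lost without library 4 of spleen at 12 months (0.0534), without the 2 libraries of conflicting age labels (0.0748) and with the age tags in place of the titles (0.294). Macrophage markers, summed over 10 genes, were 3276 to 15920 CPM in tumor dendritic cells, against 922 to 1716 CPM in those of spleen. Their part in the Havcr2 difference was not tested. Btla had 149.9, 27.2 and 139 CPM in tumor at 12 months and 129.9, 44.5, 65.2 and 144 CPM at 3 months, against 191 to 350.3 CPM (median 272) in the 6 spleen libraries. The 2 tumor libraries numbered 2 were the lowest, and they also had 15552 and 15920 CPM of summed macrophage markers, against 3276 to 7857 CPM in the other tumor libraries. The Btla call (-1.11 ± 0.41, 0.0462) was lost without the 2 libraries of conflicting age labels (0.351) and with the age tags (0.269). It was also lost in 9 of 13 fits that left out 1 library (1 of tumor at 12 months, 1, 2 and 3 of tumor at 3 months, 1, 3 and 4 of spleen at 12 months, 3 and 4 of spleen at 3 months; 0.0539 to 0.104). Spleen dendritic cells had 643 to 3890 CPM of summed B cell markers, against 15.3 to 41.1 CPM in tumor, and their part in the Btla difference was not tested. Cd160 (0 to 9.85 CPM in tumor, against 14.6 to 32.5 CPM in spleen; -2.01 ± 0.76, 0.0504) and Tigit (0.89 ± 0.83, 0.403) did not pass, though both did without the 2 tumor libraries numbered 2 (Cd160 -1.45, 0.000856, and Tigit 1.41, 0.044). Ctla4 was too low to be tested, with 15 counts in 7 tumor libraries and 0 in 6 spleen libraries. Its tumor mean was at least 4.11 times the level of 3 counts over the spleen libraries, a bound that covers counting error only. At each age 1 tumor library had no count, so the tissues overlapped.

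Age left no called difference in the myeloid sorts. In tumor, 0 of 6 receptors tested in dendritic cells passed and 0.0% of all genes did (158 at an unadjusted p under 0.05, 2 with DESeq2), while in macrophages 0 of 3 passed and 0.0% of all genes did (663 at an unadjusted p under 0.05, 3 with DESeq2). In spleen, 0 of 4 passed in dendritic cells, where 0.593% of all genes did, and 0 of 5 in macrophages, where 0.0% did (736 at an unadjusted p under 0.05). Lag3 had 70.2, 56.0 and 78.9 CPM in spleen dendritic cells at 12 months and 129.7, 79.3 and 138 CPM at 3 months (log2 fold change -0.74 ± 0.21, adjusted p = 0.133), and passed without library 3 at 3 months (-0.94, 0.0221). The age by tissue interaction passed for 0 of 6 receptors in either sort, where 0.0% of all genes passed in dendritic cells (778 at an unadjusted p under 0.05) and 0.0% in macrophages (619).

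The partners of the receptors were read from lists of named genes. Of 10 ligands, 9 were tested in each myeloid sort, and in both 8 were higher and 1, Ceacam1, a TIM-3 ligand, was lower in tumor. Of all genes, 47.1% were called in dendritic cells (24.4% higher) and 51.7% in macrophages (23.9% higher). In dendritic cells Lgals9, which encodes the TIM-3 ligand galectin-9, had a log2 fold change of 2.68 ± 0.15 and Pvr, which encodes CD155, of 2.38 ± 0.18. In macrophages Ceacam1 stood at -4.04 ± 0.16 and Lgals9 at 1.84 ± 0.12. T cells held ligands as well: in CD8 T cells 6 of 7 tested were higher in tumor (median 1.67), among them Cd274, the gene of PD-L1 (1.67 ± 0.12), and Cd86 (1.91 ± 0.15). Tumor conventional CD4 T cells were higher in 5 of 8 (median 1.57). Of all genes, 22.5% were called higher in CD8 and 16.0% in conventional CD4 T cells.

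Among transcription factors known to act on receptor genes, 11 of 14 tested were higher and 1 lower in tumor CD8 T cells than in spleen CD8 T cells (median 1.73, against -0.01 for all genes). The counts of this and the next lists stand beside 42.1% of all genes called in CD8 (22.5% higher), 27.2% in conventional CD4 (16.0% higher) and 53.5% in regulatory T cells (25.9% higher). Nr4a2, an orphan nuclear receptor induced by antigen receptor signaling, stood at 4.95 ± 0.22 and Irf4 at 3.17 ± 0.23. In conventional CD4 T cells 8 of 15 were higher and 3 lower (median 1.24), with Prdm1 at 2.54 ± 0.21 and Tcf7, the gene of a factor of naive and memory cells, at -1.73 ± 0.17. In regulatory T cells 8 of 14 were higher and 5 lower (median 0.38), with Tcf7 at -8.80 ± 0.27 and Tbx21 at 3.68 ± 0.20. Of 10 activation and effector genes, 10 were higher in tumor CD8 T cells (median 2.53) and 9 in tumor conventional CD4 T cells (median 2.16). Of other inhibitory receptors, 6 of 11 tested were higher and 1 lower in tumor CD8 T cells, led by Klrc1, the gene of NKG2A (3.94 ± 0.18), and Lilrb4a (5.32 ± 0.26). Of 4 costimulatory and competing receptors tested, out of 8 listed, 2 were higher and 0 lower (median 0.92), Icos at 2.96 ± 0.23 and Cd28 at 1.65 ± 0.20. Of 10 genes of receptor signaling and trafficking, 4 were higher and 1 lower (median 0.25), with Inpp5d, a lipid phosphatase gene, at 0.89 ± 0.10.

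With age in spleen, the counts of the same lists stand beside 3.92% of all genes called in conventional CD4 (1.96% higher) and 1.02% in CD8 T cells (0.925% higher). In conventional CD4 T cells 6 of 15 factors were higher at 12 months (median 1.14), with Maf at 2.04 ± 0.33 and Nr4a2 at 2.89 ± 0.62. Of 8 other inhibitory receptors tested 1 was higher, Lilrb4a (4.08 ± 0.52), and 4 of 10 activation and effector genes were, led by Il2rb (1.29 ± 0.22). In CD8 T cells 5 of 10 other inhibitory receptors tested were higher at 12 months (median 0.82), with Klrc1 at 2.15 ± 0.21 and Klra7 at 1.58 ± 0.23, and 3 of 10 activation and effector genes, with Cd44 at 0.82 ± 0.12. In the age by tissue interaction of conventional CD4 T cells 4 of 15 factors were lower (median -1.87, against 0.00 for all genes, 0.668% of which were called), with Maf at -2.63 ± 0.46 and Irf4 at -1.87 ± 0.39, and 1 of 5 costimulatory and competing receptors tested, Icos, was lower (-1.49 ± 0.34). Foxp3 was 1 of the 4 factors.

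Across the 45 T cell libraries, which share sorts, tissues and mitochondrial shares, 5 receptors (Pdcd1, Ctla4, Lag3, Tigit and Havcr2) varied together by the correlation of log2(CPM + 1), given as a description, with r between 0.72 and 0.93 for every pair. Cd160 and Btla joined neither these nor each other, with r = 0.18 between them and r = -0.16 for Cd160 with Pdcd1. Lag3 and Tigit were most alike (r = 0.93), followed by Ctla4 and Tigit (0.92), while Havcr2 and Btla ran opposite (-0.84). Of 8440 genes with a mean of at least 10 CPM, the 3 most like Pdcd1 were Bhlhe40 (0.95), Chst2 (0.93) and Plscr1 (0.93). For Ctla4 they were Ccr8 (0.97), Cish (0.97) and Fam129a (0.96). For Tigit they were AU020206 (0.96), Stx11 (0.96) and Ccr8 (0.94). Likewise they were Gzmb (0.97), Pld3 (0.95) and Irf7 (0.95) for Havcr2. The genes nearest Cd160 were Rmnd5b (0.89), Cd7 (0.88) and Xcl1 (0.88), and those nearest Btla were St6gal1 (0.91), Itga6 (0.90) and Slamf6 (0.90). Over the 29 macrophage and dendritic cell libraries and 8581 genes, Naa25 (0.81), Epb41l2 (0.80) and Tgm2 (0.80) were most like Havcr2 and Bcl11a (0.96), Nup210 (0.96) and Pdcd4 (0.95) most like Btla.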

How the data were processed

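Smart-seq2 RNA-seq of sorted cells gave 74 libraries in 20 groups, assigned from the sample titles. The deposited table holds raw counts per gene and library; reads were aligned with STAR 2.5.3 to mm10 and counted with featureCounts, per the submitters' processing notes. Their gene annotation and strand setting were not stated in those notes or labels. Normalized values of the authors were not used here, and CPM here are counts per 1000000 of a library's total. A count of a gene shared between annotations or strands cannot be split further.

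Tests used edgeR 4.0.16 (robust quasi-likelihood, filterByExpr, TMM; with limma 3.58.1 in R 4.3.3) over all genes, with Benjamini-Hochberg adjustment and a threshold of 0.05. Tumor over spleen and the interaction were fitted on the 4 groups of a sort, age within a tissue on the 2 groups compared, and contrasts between T cell sorts on 12 groups. Dendritic cell fits carried sex as a covariate. The fits were tested on simulated counts. Alternatives were DESeq2 1.42.0 (size factors and Wald test), no low-count filter, a replicate block, leaving out each library, and sets of libraries that stood apart, the last added after the data were seen. No 2 libraries of a group were identical (103 pairs). Overlap between groups was read for the 7 members only, and the share of all genes without overlap was not counted. The 7 members were named in every comparison, pathway genes by smallest adjusted p (up to 2 a list), and likeness as the 3 highest correlations (those of Lag3 are not reported here); members and lists were chosen with earlier results of these data known. Same-numbered libraries were taken as paired where every correlation of their deviations was over 0.1, which held for tumor regulatory T cells across ages alone (4 pairs, 0.118 to 0.374). Gene positions come from GENCODE M21 (GRCm38) and promoter sequences from RefSeq (GRCm38.p6).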

Additional observations from a re-analysis of the deposited data

Results flagged for a closer look

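Among the 70 sets of 4 libraries in which a receptor averaged at least 10 CPM, 8 held 1 library that stood apart from the other 3. The rule flags about 1 in 20 groups of independent, normally spread values. The 70 sets share libraries and hold receptors that vary together, and flags over all genes were not counted. The 8 flagged libraries are therefore not shown to exceed chance. Of these, 4 were tumor T cell libraries numbered 4: Tigit in regulatory T cells at 12 months (472 CPM) and at 3 months (571 CPM), both below the other 3, Ctla4 in regulatory T cells at 3 months (107 CPM) and Btla in CD8 T cells at 3 months (70.5 CPM), both above the other 3. In tumor conventional CD4 T cells at 12 months, Pdcd1 was high in library 2 (391 CPM) and Ctla4 low in library 3 (31.7 CPM). In macrophages at 12 months, library 4 was high for Havcr2 in tumor (352 CPM) and for Btla in spleen (117 CPM).

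Other values were flagged because a difference itself passed a test (edgeR, adjusted p under 0.05). The age change in tumor minus that in spleen was -1.79 for Pdcd1, -2.54 for Ctla4 and -2.78 for Tigit on the log2 scale in conventional CD4 T cells. The tumor change of CD8 T cells minus that of conventional CD4 T cells was 3.82 for Pdcd1, 2.06 for Ctla4, 2.94 for Lag3, 1.79 for Tigit and 3.62 for Cd160. Minus that of regulatory T cells it was 4.77 for Pdcd1, 3.94 for Ctla4, 1.95 for Lag3, 5.36 for Cd160 and 1.21 for Btla. The tumor change of regulatory minus conventional CD4 T cells was -0.95 for Pdcd1, -1.87 for Ctla4, 1.40 for Tigit, -1.74 for Cd160 and -1.46 for Btla. The spleen age change of regulatory minus conventional CD4 T cells was -1.41 for Pdcd1.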

How the results depend on the processing

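Of 89 called results of single receptors, 65 passed under every alternative run on them and none changed direction. Shares of all genes called under each alternative are not set beside the counts and added calls below. The moves are therefore not shown to be particular to the receptors. Counts of receptors past the threshold that moved by more than 1.5 times were as follows. With no low-count filter it was 1 for the interaction in CD8 T cells, 2 for spleen age in regulatory T cells, 1 for spleen age in dendritic cells, 1 for each of the spleen age contrasts of CD8 with conventional CD4 and with regulatory T cells and 3 for that of regulatory with conventional CD4 T cells. With the DESeq2 Wald test it was 1 for the CD8 interaction, 1 for spleen age in dendritic cells and 2 for the regulatory with conventional CD4 spleen age contrast. With the replicate block, whose numbers missed the pairing rule in these sets of libraries, it was 3 for the CD8 interaction, 1 for tumor age in conventional CD4 T cells (Ctla4), 2 for spleen age in regulatory T cells and 1 for spleen age in dendritic cells. With all 4 groups in one fit it was 1 for spleen age in CD8 T cells and 0 in regulatory T cells. Without the tumor libraries numbered 4 it was 2 for the CD8 interaction. Without the 2 ribosome-rich libraries it was 3 for the tumor contrast of CD8 with conventional CD4 T cells, 3 for the spleen level and 2 for the tumor contrast of regulatory with conventional CD4 T cells, and 0 for their spleen age contrast. Without the 2 libraries of conflicting labels, and with age tags, it was 2 for tumor over spleen in dendritic cells. Leaving out each library gave 0 to 1 for the CD8 interaction, 0 to 2 for spleen age in CD8 T cells, 0 to 1 in regulatory T cells and 0 to 1 in dendritic cells, 2 to 5 for tumor over spleen in dendritic cells, 3 to 6 for CD8 over conventional CD4 T cells in tumor and 0 to 2 for the regulatory with conventional CD4 spleen age contrast. It gave 2 to 4 for the interaction in conventional CD4 T cells, against 3. Within that margin, leaving out the filter added Lag3 and Tigit to CD8 over conventional CD4 T cells in tumor, Havcr2 in spleen and Havcr2 to their tumor contrast, Cd160 and Btla to regulatory over conventional CD4 T cells in spleen, and Lag3 and Havcr2 to their tumor contrast. DESeq2 added Lag3 to the conventional CD4 interaction, Pdcd1 to spleen age in CD8 T cells, Tigit and Havcr2 to CD8 over conventional CD4 T cells in tumor and in spleen, and Cd160 to regulatory over conventional CD4 T cells in spleen. Of 140 group means, 12 moved by more than 1 SD under TMM scaling. The causes were not tested. Where 1 library was left in a group, its spread was assumed to be that of the other groups. Depth limits low members: Havcr2 had 7 counts in spleen conventional CD4 T cells and Ctla4 12 in spleen CD8 T cells.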
